A study of Arabidopsis thaliana with 18 samples.

Results

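The genes described here are those that the plastid genome of Arabidopsis thaliana encodes, followed by symbol across 18 expression arrays of sorted root protoplasts. Of 58 plastid genes listed by symbol in the annotation of the ATH1 array, 57 had a probeset (the set of probes that reads 1 gene) naming that gene alone. The remaining one, ndhB, was skipped because its probeset names 2 copies of the gene. Of the 57 measured genes, 54 were bright enough to be tested, out of 16892 tested probesets among 22746 in all. They are 5 photosystem I genes (psa), 12 of 14 photosystem II genes (psb), 6 genes of the cytochrome b6f complex (pet), 6 ATP synthase genes (atp), 9 of 10 genes of the NADH dehydrogenase-like complex (ndh), 4 RNA polymerase genes (rpo), 9 ribosomal protein genes, and rbcL, accD and matK.

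The study over-expressed Aux/IAA proteins, repressors of auxin-induced genes, in root cells and then gave auxin. Roots of seedlings 7 days old, in the Col-0 background with a GFP reporter driven by the WER promoter (active in root epidermis and root cap), were digested for 3 h to protoplasts, which are cells without walls. The protoplasts were transformed with polyethylene glycol, left overnight, and given 5 µM indole-3-acetic acid (IAA, the main natural auxin) or solvent alone (mock) for 3 h. Cells with green and red fluorescence were collected by sorting, and their amplified RNA was hybridised. The 6 groups of 3 arrays were IAA19mII over-expressor with IAA, IAA7mII over-expressor with IAA, empty vector with IAA, and the same 3 vectors with mock treatment. All groups carry the reporter, were protoplasted and went through transformation, and all are transient transformants, so they are no stable lines. Both over-expressors are in the plasmid pBeaconRFP and the empty vector is pMON999_mRFP, so plasmid backbone and over-expressed protein cannot be told apart in any comparison with empty vector. The labels do not spell out mII, nor whether replicates came from separate cultures; p-values therefore cover only the spread among these arrays, which may be technical.

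Plastids hold a small genome of their own, present in many copies per cell, which encodes core subunits of the photosynthetic complexes and part of the gene expression machinery. Most plastid genes are copied as multi-gene transcripts by a bacterial-type polymerase whose core subunits are the products of rpoA, rpoB, rpoC1 and rpoC2, while a phage-type polymerase encoded in the nucleus copies a few genes, the rpoB-rpoC1-rpoC2 unit among them. In roots most plastids are not green, and transcripts of photosynthesis genes are low compared with leaves. In sorted cells, fewer plastids, fewer genome copies and less RNA per copy cannot be told apart.

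Signals are the authors' MAS5 values on a linear scale. Probesets differ in how strongly they bind, so levels are compared between arrays and never between genes. Changes are log2 differences of log2(signal + 16), which understates the change of dim genes. Standard errors (SE) and 95% intervals come from limma, which pooled the spread over all 6 groups, and a gene was called changed at a Benjamini-Hochberg adjusted p under 0.05. The mean signals of the 54 tested genes over the 18 arrays ran between 16.5 (petL) and 2973 (accD), and 30 of the 57 measured genes were above their array's 40th percentile on all 18 arrays. That percentile was a signal of 20.6 to 32.3. The 3 genes left out, psbM, psbT and ndhF, had signals between 0.1 and 34.9.

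1 array stood apart for these genes. In the third replicate of IAA7mII cells with IAA, the median gene of the 54 lay 0.73 above its mean over all 18 arrays on the log2 scale, against -0.12 in replicate 1 and -0.21 in replicate 2 of the same group. Of the 54 genes, 44 (81.5%) had their highest signal of that group in replicate 3, against 34.1% of all tested probesets. The measured plastid genes made up 0.251% of the summed signal of that array, against 0.125% and 0.110% in replicates 1 and 2. Among empty vector arrays with IAA, replicate 3 was the low one, with 37 of 54 genes at their lowest there. In replicate 2 of that group the measured plastid genes made up 0.199% of the summed signal, against 0.176% and 0.128% in replicates 1 and 3. Medians over the 54 genes that move with the third array of either group are followed by the value without it. Counts of genes at an unadjusted p under 0.05 or without overlap use all arrays.

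**Figure D1:**
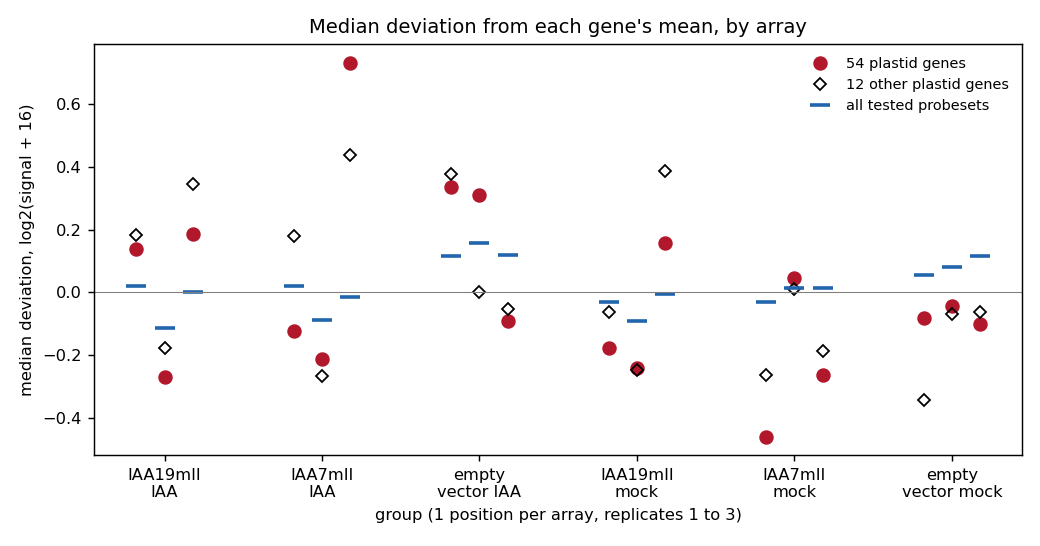
Median deviation of the 54 tested plastid genes (filled circles), the 12 other plastid genes (open diamonds) and all 16892 tested probesets (short bars) from each gene's own mean over the 18 arrays, in log2 units, with the 3 arrays of each group side by side. The third array of IAA7mII cells with IAA lies at 0.73, above the filled circles of all other arrays, while the bar for all probesets stays near 0 there.

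The gene with the highest mean signal in each complex stands for it, with its value in every array.

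psaI encodes a small membrane subunit of photosystem I. Its signal was 1205.9, 724.3 and 864.1 in IAA19mII cells with IAA, 1002, 644.9 and 1132.8 in IAA7mII cells with IAA, and 1125.9, 1019.8 and 1008.9 in empty vector cells with IAA. Its mock signals were 1080.9, 852.5 and 1033.2 in IAA19mII cells, 951.3, 824.2 and 741.2 in IAA7mII cells, and 872.3, 1155.8 and 982.6 in empty vector cells. The over-expressor arrays overlapped those of empty vector within each treatment, and the IAA arrays overlapped those with mock treatment within each vector. With IAA it differed from empty vector by -0.20 (SE 0.22) on the log2 scale in IAA19mII cells and by -0.22 (SE 0.22) in IAA7mII cells, and its response to IAA in empty vector cells was 0.07 (95% interval -0.38 to 0.53).

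psbB encodes CP47, a core antenna protein of photosystem II. Its signal was 360.6, 240.5 and 517.5 in IAA19mII cells with IAA, 473.2, 241.1 and 1034.9 in IAA7mII cells with IAA, and 596, 743.4 and 204 in empty vector cells with IAA. In mock arrays the signals were 466.8, 224.2 and 373.8 in IAA19mII cells, 167.7, 268.5 and 135.5 in IAA7mII cells, and 380.3, 361.3 and 279.2 in empty vector cells. All 3 mock arrays of IAA7mII cells lay below the 3 of empty vector cells, a difference of -0.83 (SE 0.43, limma adjusted p = 0.244). Within IAA7mII cells psbB had the largest log2 response to IAA of the 54 genes, 1.35 (SE 0.43, limma adjusted p = 0.405), and it was not called; the treated and mock arrays overlapped because replicate 2 with IAA was at 241.1. Without the third IAA array the response was 0.83.

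petB encodes cytochrome b6 of the complex that links both photosystems. Its signal was 330.4, 193.3 and 301 in IAA19mII cells with IAA, 304.4, 224.1 and 838.6 in IAA7mII cells with IAA, and 338.6, 509.2 and 330.3 in empty vector cells with IAA. The mock arrays read 510.7, 326.6 and 474.5 in IAA19mII cells, 235.7, 358.1 and 210.5 in IAA7mII cells, and 254.3, 289.4 and 219.2 in empty vector cells. The 3 mock arrays of IAA19mII cells were all above those of empty vector cells (0.73, SE 0.35, limma adjusted p = 0.171), and the 3 empty vector arrays with IAA were all above those with mock treatment (0.58, SE 0.35, limma adjusted p = 1.00). In IAA19mII cells the response to IAA had the other sign, -0.65 (SE 0.35), and the difference of the responses, IAA19mII minus empty vector, was -1.23 (95% interval -2.24 to -0.21, limma adjusted p = 0.92).

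atpE encodes the epsilon subunit of the ATP synthase. Its signal was 491.7, 247.8 and 453.2 in IAA19mII cells with IAA, 415.7, 347.4 and 587.9 in IAA7mII cells with IAA, and 379.2, 434.3 and 294.7 in empty vector cells with IAA. After solvent alone it was 291.8, 355.1 and 399.7 in IAA19mII cells, 238, 370.6 and 268.8 in IAA7mII cells, and 227.8, 347.5 and 289.7 in empty vector cells. Neighbouring groups overlapped, and the response to IAA was 0.13 (SE 0.28) in IAA19mII cells, 0.59 (SE 0.28) in IAA7mII cells and 0.34 (SE 0.28) in empty vector cells. The response in IAA7mII cells was 0.38 without the third IAA array.

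ndhE encodes a membrane subunit of the NADH dehydrogenase-like complex, which carries electrons around photosystem I. Its signal was 89.9, 64.2 and 28.1 in IAA19mII cells with IAA, 79.2, 32.9 and 250.2 in IAA7mII cells with IAA, and 129.9, 110.4 and 80.9 in empty vector cells with IAA. In cells given solvent alone the signals were 77.4, 56.5 and 124.8 in IAA19mII cells, 49, 52.1 and 123.2 in IAA7mII cells, and 51.6, 54 and 64.7 in empty vector cells. All 3 empty vector arrays with IAA were above the 3 with mock treatment, with a response of 0.74 (95% interval -0.24 to 1.72, limma adjusted p = 1.00). The spread in IAA7mII cells with IAA, from 32.9 to 250.2, was wider than any difference between group means.

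rpoA encodes the alpha subunit of the plastid's own RNA polymerase. Its signal was 179.4, 169.6 and 151.9 in IAA19mII cells with IAA, 141.2, 179.7 and 393.2 in IAA7mII cells with IAA, and 225.4, 211 and 137.5 in empty vector cells with IAA. The mock signals of this gene were 181.6, 99.8 and 297.9 in IAA19mII cells, 77.1, 137.4 and 95.4 in IAA7mII cells, and 205.9, 185.8 and 174.5 in empty vector cells. The mock arrays of IAA7mII cells were the low ones: they lay below all 3 of empty vector cells (-0.81, SE 0.36, limma adjusted p = 0.165) and below all 3 IAA7mII arrays with IAA (response 0.99, SE 0.36, limma adjusted p = 0.521, and 0.59 without the third IAA array).

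rpl20 encodes a protein of the large subunit of the plastid ribosome. Its signal was 758.3, 582.1 and 1113.6 in IAA19mII cells with IAA, 639.9, 916.8 and 1264.9 in IAA7mII cells with IAA, and 814, 539 and 561.8 in empty vector cells with IAA. In the mock groups it had 816.4, 578.8 and 817.2 in IAA19mII cells, 584.9, 843.3 and 510.5 in IAA7mII cells, and 394.9, 516.3 and 577.7 in empty vector cells. The mock arrays of IAA19mII cells did not overlap those of empty vector cells (0.56, SE 0.27, limma adjusted p = 0.185). With IAA, the difference from empty vector was 0.52 (SE 0.27, limma adjusted p = 0.195) in IAA7mII cells.

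accD encodes a subunit of the acetyl-CoA carboxylase of plastid fatty acid synthesis, a step that non-green plastids also run. Its signal was 3328.8, 2445 and 3897.7 in IAA19mII cells with IAA, 2949.1, 2813.9 and 4106.9 in IAA7mII cells with IAA, and 4064.4, 2339.6 and 2592.9 in empty vector cells with IAA. Its signals in mock arrays were 2903.3, 2707.4 and 3177.4 in IAA19mII cells, 2644.4, 3442.6 and 2412.2 in IAA7mII cells, and 2462, 2690.3 and 2528.9 in empty vector cells. accD had the narrowest intervals of the genes described: its response to IAA in empty vector cells was 0.19 (95% interval -0.23 to 0.60), and its difference from empty vector with IAA was 0.12 in IAA19mII cells and 0.15 in IAA7mII cells.

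**Figure D2:**
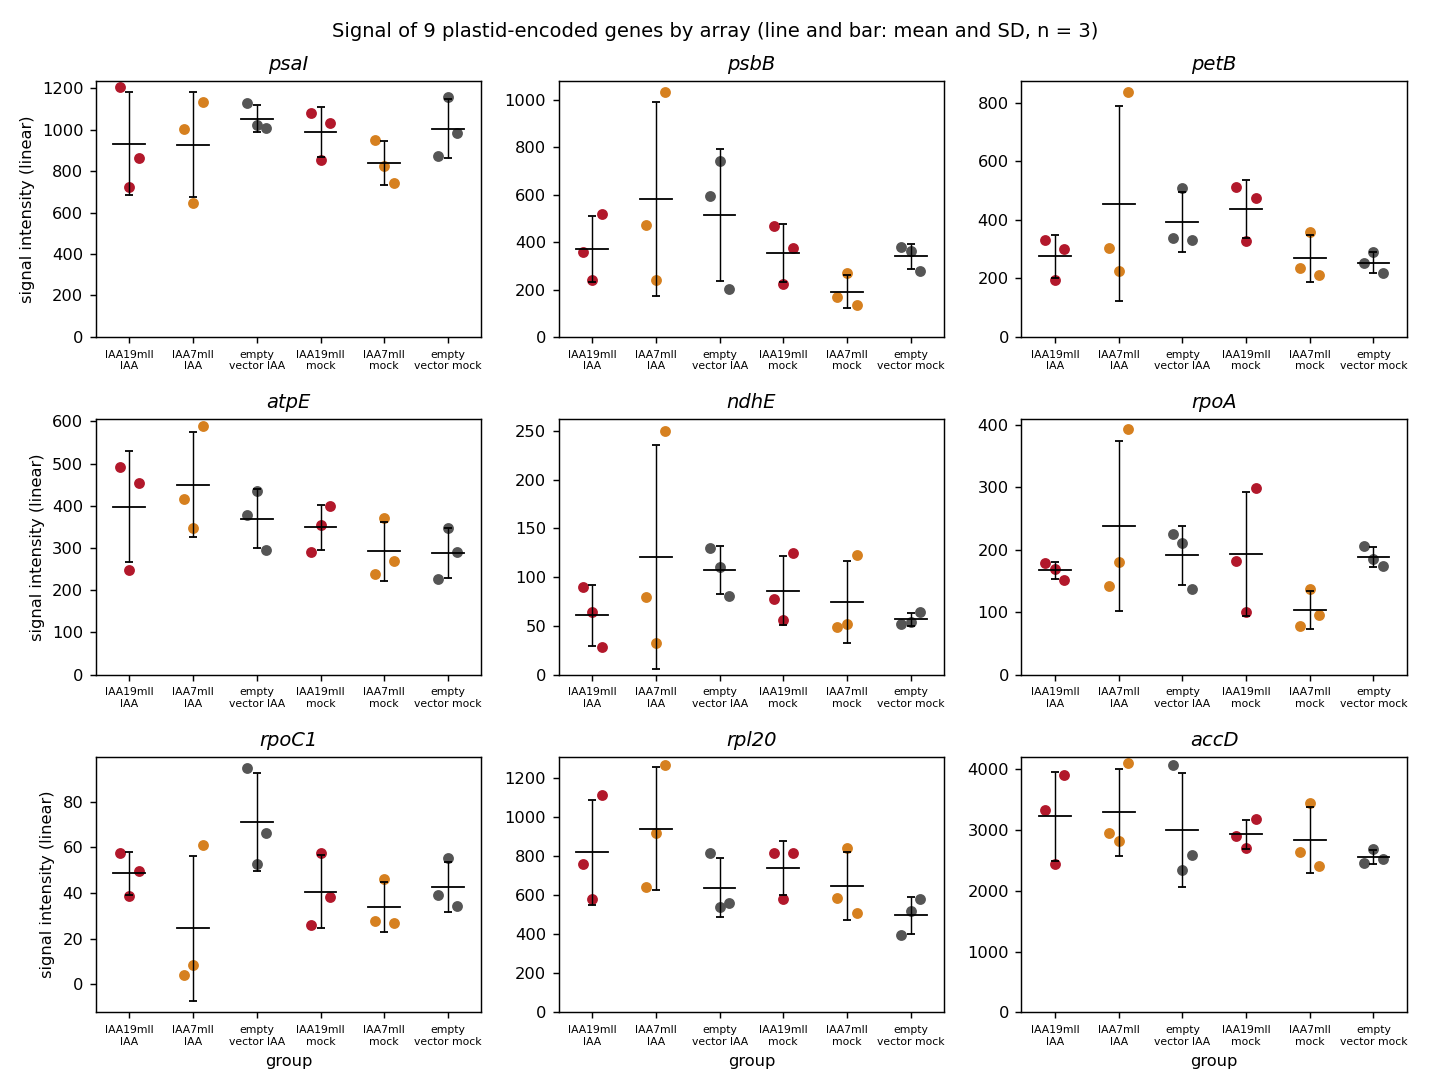
Signal (linear MAS5 units) of the leading gene of each complex and of rpoC1 in the 6 groups; points are single arrays and bars show the group mean and SD (n = 3), the bar of rpoC1 in IAA7mII cells with IAA reaching below 0. The groups overlap for most genes, and 1 high array of IAA7mII cells with IAA widens the bars of psbB, petB, ndhE and rpoA.

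The first question was how plastid transcripts differed between IAA7mII and empty vector cells given IAA, the comparison that held the only call. rpoC1, which encodes the beta prime subunit of the plastid RNA polymerase, was lower in IAA7mII cells. Its signal was 57.6, 38.8 and 49.7 in IAA19mII cells with IAA, 4, 8.4 and 61.2 in IAA7mII cells with IAA, and 94.7, 52.7 and 66.3 in empty vector cells with IAA. In mock cells its signals were 25.9, 57.5 and 38.4 in IAA19mII cells, 27.8, 46.3 and 26.9 in IAA7mII cells, and 38.9, 55.2 and 34.2 in empty vector cells. Replicates 1 and 2 of IAA7mII cells with IAA were the lowest of the 18 arrays, while replicate 3, the array that stood apart, lay among the empty vector arrays. The signals of 4 and 8.4 were far below the 40th percentile of 20.6 to 32.3. The mean was 24.5 ± 31.8 in IAA7mII cells and 71.2 ± 21.4 in empty vector cells (SD, n = 3 each), a log2 change of -1.35 (SE 0.43, 95% interval -2.23 to -0.47, limma adjusted p = 0.0265). rpoC1 was the 1 of 54 genes called in this comparison, against 19.5% of all tested probesets, of which 11.7% were lower; 2 genes, rpoC1 and atpH, had an unadjusted p under 0.05 (background 31.9%). The call was lost when arrays were centred on their medians (adjusted p = 0.0941) or quantile normalized (0.0962), and without replicate 1 or 3 of empty vector or replicate 1 or 2 of IAA7mII (0.0628 to 0.141).

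rpoB and rpoC2, which share a transcript with rpoC1 and encode the beta and beta double prime subunits, were not called with it. rpoB had signals of 85.6, 110.7 and 40.7 in IAA7mII cells with IAA, against 62.7, 88.9 and 55.9 in empty vector cells with IAA (log2 change 0.10, SE 0.38). rpoC2 had 45.1, 4.4 and 68.6 in IAA7mII cells with IAA, against 57.5, 35.1 and 23.1 in empty vector cells with IAA (-0.16, SE 0.52). Both genes overlapped between the groups, and for rpoB the array that stood apart was the lowest of its group, unlike for rpoC1 and rpoA.

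Over all 54 genes the median change in IAA7mII cells with IAA was -0.03, with 22 genes above 0 (background 40.1%), and the median over all tested probesets was -0.17. That background median differed from 0 by more than 0.1 in 3 of the 4 comparisons with empty vector, being -0.14 in IAA19mII cells with mock treatment and -0.17 in both over-expressors with IAA. The sign of the plastid median depends on this scaling: when arrays were centred on their medians, it was 0.29 in IAA7mII cells with IAA, with 42 genes above 0, beside 0.15 for all probesets. The 95% interval stayed within a 2-fold change either way for 24 of 54 genes, against 28.6% of all probesets, so for most genes a 2-fold change was within the error. With all arrays, ndhI was the 1 gene whose arrays did not overlap, all IAA7mII arrays being lower (background 21.5%), and 0 genes had all of them higher (background 12.4%). The count rested on the third IAA7mII array. Without it more genes had no overlap and were lower in IAA7mII cells. With fewer arrays in a group, a lack of overlap is more common in any probeset. The share of all probesets without that array was not computed, so the larger number of genes cannot be judged.

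Without the third IAA7mII array, 6 of 54 genes were called lower in IAA7mII cells with IAA, against 11.6% of 16699 tested probesets: psbC, psbD, psaB, psaC, atpH and rpoC1. The count is near the share of all probesets. That array was singled out because most of the 54 genes were high on it. Lower values without it follow from that choice, so these calls are descriptions. Replicate 2 of empty vector with IAA, itself high for psbC, psbD and psaB, was kept. psbC and psbD encode the CP43 antenna and the D2 reaction centre protein of photosystem II. psbC had 74.9, 45.5 and 881.2 in IAA7mII cells, against 182.3, 741.2 and 174.6 in empty vector cells, a log2 change of -0.84 (SE 0.64) with all arrays and -2.03 (limma adjusted p = 0.00437) without the third. psbD had 90.9, 99.2 and 695.7 in IAA7mII cells, against 239.7, 891 and 172.9 in empty vector cells, which gave -0.77 with all arrays and -1.67 (limma adjusted p = 0.0105) without it. Both are low in replicates 1 and 2 and high in replicate 3 of IAA7mII cells. psaB, a reaction centre protein of photosystem I, had 187.9, 87.6 and 572.7 in IAA7mII cells, against 407.3, 666.7 and 174.7 in empty vector cells (-0.72 with all arrays, -1.39 without, limma adjusted p = 0.0237). psaC, an iron-sulphur subunit of photosystem I, had 119.4, 37.1 and 744.9 in IAA7mII cells, against 268.6, 289.6 and 141.2 in empty vector cells (-0.44 and -1.50, limma adjusted p = 0.024). atpH, the ring subunit of the ATP synthase, had 161.5, 121.9 and 327.1 in IAA7mII cells, against 312.6, 478.2 and 324 in empty vector cells (-0.91 and -1.28, limma adjusted p = 0.0119). In each of the 6 genes replicates 1 and 2 of IAA7mII cells were below replicate 3, and rpoC1 itself was at -1.95 (limma adjusted p = 0.000991). The median over the 54 genes without that array was -0.40, with 13 above 0, and it was -0.25 with 15 above 0 without replicate 3 of empty vector with IAA and 0.12 without replicate 2 of IAA7mII cells with IAA. Why the array differs was not tested.

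In IAA19mII cells with IAA, 0 of 54 plastid genes were called against empty vector by limma, beside 23.5% of all tested probesets, and 0 had an unadjusted p under 0.05 (background 35.2%). The median change was -0.28 with 14 genes above 0 (background 40.9%), and was -0.00 with 27 above 0 when arrays were centred on their medians. It was -0.45 with 10 above 0 without replicate 3 of empty vector with IAA, and -0.09 without replicate 2 of that group. By complex, 12 of 12 psb genes were below 0 (median -0.46, range -0.94 to -0.10), 7 of 9 ndh genes (median -0.42) and 4 of 6 pet genes (median -0.31). Under median centring 9 of 12 psb genes (median -0.18), 6 of 9 ndh genes (-0.14) and 3 of 6 pet genes (-0.03) were below 0, and for psa, ribosomal protein and rpo genes the complex median turned above 0 (0.08, 0.16 and 0.27). Leaving out empty vector arrays with IAA moved the psb median to -0.84 (without replicate 3) and -0.09 (without replicate 2, where 8 of 12 psb genes were below 0). rpl14, a large-subunit ribosomal protein gene, had 178.5, 124.5 and 450.4 in IAA19mII cells, against 106.9, 95.7 and 153.7 in empty vector cells, a change of 0.82 (SE 0.41, limma adjusted p = 0.159), the lowest adjusted p of the 54. It was called once arrays were median-centred or quantile normalized. psaC, atpB, atpH and ndhK had all 3 IAA19mII arrays below the 3 empty vector arrays (4 genes, background 24%), and rps14 had all above (1 gene, background 13.8%).

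With mock treatment, the comparisons ask how over-expressor cells differed from empty vector cells without added IAA. In IAA19mII cells 0 of 54 genes were called by limma (background 14.5%) and 2, petB and ndhK, had an unadjusted p under 0.05 (background 27.7%). The median change was -0.03 with 25 genes above 0 (background 40.9%), and 0.21 with 39 above 0 under median centring; with 1 array left out it was -0.08 (without replicate 3 of IAA19mII mock) to 0.09 (without replicate 2). The pet genes were all above 0, 6 of 6, with changes of 0.27 to 0.74 and a median of 0.55. They stayed so under median centring (median 0.79), centring on non-organelle probesets and quantile normalization. The count rested on single arrays: petN turned just below 0 without replicate 3 of empty vector mock, where its signal was 4.5. The 4 rpo genes were all below 0 (median -0.08), but all above 0 under median centring (median 0.16), and 3 were above 0 without replicate 1 of IAA19mII mock. petA, which encodes cytochrome f, had 191.5, 133.2 and 277.7 in IAA19mII cells, against 104.8, 102.8 and 121.1 in empty vector cells (0.74, SE 0.43, limma adjusted p = 0.278), and none of these arrays overlapped. ndhK, an iron-sulphur subunit gene, had 3.8, 19.1 and 15.6 in IAA19mII cells, against 34.3, 33.9 and 41.7 in empty vector cells (-0.91, SE 0.42, limma adjusted p = 0.159), again without overlap. Its IAA19mII signals were below the 40th percentile of 20.6 to 32.3, and its empty vector signals were not far above it. In all, 6 genes had every IAA19mII array above empty vector (background 13.8%) and 6 had every array below (background 22.9%).

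In IAA7mII cells with mock treatment 0 of 54 genes were called by limma (background 11.4%), and 1, rpoA, had an unadjusted p under 0.05 (background 24.4%). The median change was -0.15 with 22 genes above 0 (background 43.1%), and 0.08 with 28 above 0 under median centring; with 1 array left out it was -0.24 (without replicate 2 of IAA7mII mock) to -0.06 (without replicate 1). All 5 psa genes were below 0 (-0.61 to -0.25), as were 8 of 12 psb genes and 3 of 4 rpo genes, while 5 of 6 atp genes were above 0, with changes of -0.11 to 0.16. The psa, psb and rpo counts were the same under median centring (medians -0.05, -0.25 and -0.19), and the atp genes were then 6 of 6 above 0 (0.11 to 0.38). Without replicate 2 of IAA7mII mock, 1 of the 6 atp genes was above 0. psbB, psaC, matK, ndhA, rpoA and rpoB had all IAA7mII arrays below empty vector (6 genes, background 20.5%), and psbA and psbI had all above (2 genes, background 13%). psbA, the D1 reaction centre protein gene of photosystem II, had 202.6, 166.2 and 174.2 in IAA7mII cells, against 102.9, 162.7 and 162.1 in empty vector cells (0.33, SE 0.65).

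**Figure D3:**
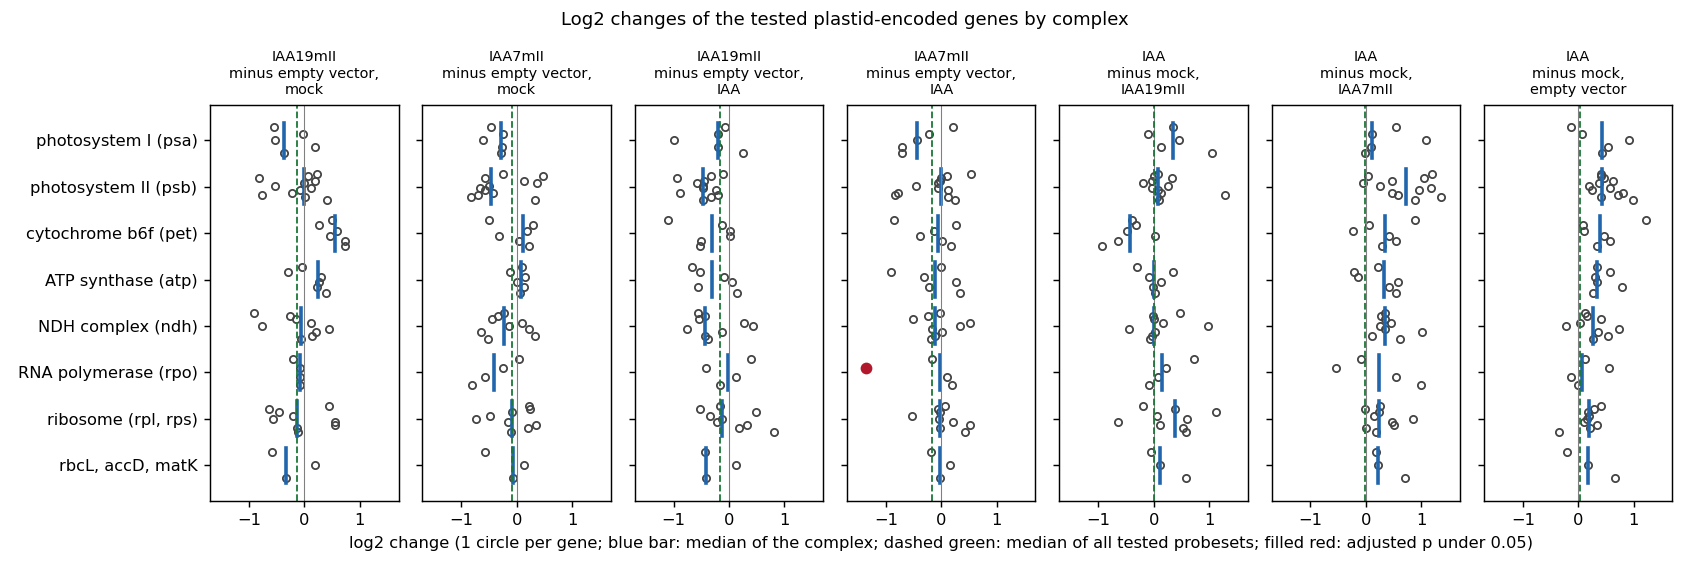
Log2 change of each of the 54 tested genes in the comparisons, grouped by complex. Each circle is a gene, the filled one is a call at an adjusted p under 0.05, and the vertical bar marks the complex median; rpoC1 in IAA7mII against empty vector with IAA is the filled circle, at -1.35.

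Set against each other, the over-expressors gave no call for any member by limma. With mock treatment 0 of 54 genes were called between IAA19mII and IAA7mII cells (background 4.37%) and 1 had an unadjusted p under 0.05 (background 14.6%), with a median change of 0.13 and 34 above 0 (background 44.7%). That median was 0.08 without replicate 3 and 0.26 without replicate 2 of IAA7mII mock. The gene at an unadjusted p under 0.05 was rpl22, with 172.4, 176.7 and 212.3 in IAA19mII cells, against 113.9, 127.3 and 88.3 in IAA7mII cells (0.70, SE 0.29, limma adjusted p = 0.239); it was the 1 gene with all IAA19mII arrays higher (background 9.57%), and 0 had all lower (background 10.7%). With IAA 0 of 54 were called (background 6.64%), 1 had an unadjusted p under 0.05 (background 19.8%) and the median was -0.21 with 16 above 0 (background 49.3%). The sign of that median rested on the third IAA7mII array: without it the median was 0.05 with 33 above 0, and it was -0.39 without replicate 1 of that group. rps14 was the 1 gene with all IAA19mII arrays higher (background 9.43%), and 0 had all lower (background 8.48%). rpoC1 had the lowest adjusted p there, at 0.94 (SE 0.43, limma adjusted p = 0.216). Without the third IAA7mII array, psbC (1.83, limma adjusted p = 0.024) and rpoC1 (1.54, limma adjusted p = 0.0196) were called higher in IAA19mII cells, beside 4.14% of all probesets. The array left out was again the one singled out by the members' own values. Without replicate 2 of IAA7mII cells with IAA, petA was called lower in IAA19mII cells. Its signal was 52.4 in the array left out, against 189.8 and 393.9 in the other IAA7mII arrays with IAA. The share of all probesets called in that setting is not given here, and with all arrays it was 6.64%.

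The response to IAA within each vector gave few calls in any gene: IAA changed 0.734% of all tested probesets in empty vector cells and 0.0888% in each over-expressor. No plastid gene was called in any of them by limma. In IAA19mII cells the median of the 54 genes was 0.07 with 34 above 0 (background 50.4%), beside a median of 0.00 over all probesets, and it was -0.02 without replicate 1 and 0.28 without replicate 2 of that vector's IAA arrays; 4 genes had an unadjusted p under 0.05 (background 8.82%). In IAA7mII cells it was 0.34 with 45 above 0 (background 47.4%) and 7 genes at an unadjusted p under 0.05 (background 7.73%), and 0.04 with 30 above 0 without the third IAA array and 0.58 without the second. In empty vector cells it was 0.34 with 48 above 0 (background 54.2%) and 1 gene at an unadjusted p under 0.05 (background 5.16%). That median was 0.26, 0.20 and 0.47 without replicate 1, 2 or 3 of the empty vector arrays with IAA, and 0.28 with arrays median-centred. The 3 comparisons share no arrays.

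In empty vector cells 12 of 12 psb genes, 6 of 6 pet genes and 6 of 6 atp genes were above 0 with IAA, with medians of 0.44, 0.40 and 0.34, as were 8 of 9 ndh and 8 of 9 ribosomal protein genes, while 2 of 4 rpo genes were. Under both centrings and quantile normalization the psb, atp and ribosomal protein counts were the same and 7 of 9 ndh genes were above 0, and with quantile normalization 5 of 6 pet genes. Without replicate 3 of the IAA arrays the psb median was 0.90, still with 12 of 12 above 0, and without replicate 2 it was 0.10 with 9 of 12. Without replicate 1 of the mock arrays 4 of 6 pet genes were above 0, and for rpo it was 1 of 4 without replicate 1 of the IAA arrays. 9 genes had every IAA array above every mock array: psbL, psaC, atpB, atpH, petA, petB, petD, petN and ndhE (background 8.81%, and 0 genes the other way, background 6.48%). petN, a small subunit of the cytochrome complex, had 83.4, 143.8 and 47.1 with IAA, against 45.8, 46.2 and 4.5 with mock treatment, the largest change at 1.22 (95% interval -0.08 to 2.52). Its mock signal of 4.5 was far below the 40th percentile of 20.6 to 32.3. The lowest IAA signal, 47.1, lay just above the highest mock signal, 46.2. atpB, the beta subunit of the ATP synthase, had 361.3, 259.9 and 286.7 with IAA, against 166, 192.3 and 147.8 with mock treatment (0.78, SE 0.31, limma adjusted p = 0.683), the lowest adjusted p of the 54. Neither passed the test, although their arrays did not overlap.

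In IAA7mII cells 11 of 12 psb genes and 9 of 9 ndh genes were above 0 with IAA, with medians of 0.73 and 0.34 and the same counts under both centrings and quantile normalization. The psb pattern rested on the third IAA array: without it 6 of 12 psb genes were above 0 (median -0.02) and 7 of 9 ndh genes (median 0.41). Without replicate 2 of that group the medians were 1.03 and 0.72. psbF, which encodes the beta subunit of cytochrome b559, had 211.4, 375.6 and 660.3 with IAA, against 134.1, 271.5 and 107 with mock treatment (1.17, SE 0.41, limma adjusted p = 0.495). Its arrays overlapped, the highest again being replicate 3 with IAA, without which the response was 0.77. ndhD and rpoA were the 2 genes with every IAA array above mock (background 4.48%), and 0 had every array below (background 5.96%). ndhD had 37.3, 21.7 and 30.5 with IAA, against 1.6, 19.4 and 2.3 with mock treatment (1.01, SE 0.43). Its IAA signals were near the 40th percentile, and its mock signals of 1.6 and 2.3 were far below it.

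In IAA19mII cells the complexes split: 5 of 6 pet genes were below 0 with IAA (median -0.43), while 4 of 5 psa genes (median 0.36) and 7 of 9 ribosomal protein genes (median 0.39) were above 0, counts that did not change under both centrings and quantile normalization. With 1 array left out, 4 to 6 pet genes were below 0, and 3 to 4 psa and 5 to 7 ribosomal protein genes were above 0; the ribosomal protein median was 0.14 without replicate 1 and 0.64 without replicate 2 of the IAA arrays, and the pet median -0.70 without replicate 1. rps14, a small-subunit ribosomal protein gene that shares a transcript with psaA and psaB, had 45.1, 62.5 and 63.8 with IAA, against 13.6, 13.5 and 25.8 with mock treatment (1.13, SE 0.43, limma adjusted p = 0.437). The mock signals of 13.6 and 13.5 were below the 40th percentile of 20.6 to 32.3. psaA, a reaction centre protein of photosystem I, had 109.3, 125.8 and 180.7 with IAA, against 40.7, 78.8 and 57.2 with mock treatment (1.05, SE 0.47, limma adjusted p = 0.535). psbC had 169.9, 383.1 and 237.4 with IAA, against 139.9, 80.8 and 70.4 with mock treatment (1.28, SE 0.64, limma adjusted p = 0.578). Together with ndhK these were the 4 genes with every IAA array above mock (background 6.13%), and rpl22 was the 1 with every array below (background 5.65%). The ndhK signals of both groups were near or below the 40th percentile. petA pointed the other way from these, with 144.4, 71.2 and 78.7 with IAA, against 191.5, 133.2 and 277.7 with mock treatment (-0.93, SE 0.43).

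The difference between responses asks whether the response to IAA differed between vectors. For IAA19mII minus empty vector, 0 of 54 genes were called by limma (background 0.0888%) and 2 had an unadjusted p under 0.05 (background 4.88%). Above 0 were 15 of 54 genes (background 48.2%). All 6 pet genes and all 6 atp genes were below 0, with medians of -0.90 and -0.32, beside -0.29 for the 54 genes and -0.02 for all probesets, and all 12 stayed below 0 under both centrings and quantile normalization. The median of the 54 genes was -0.40 without replicate 3 of empty vector with IAA and -0.10 without replicate 2 of IAA19mII with IAA. With that IAA19mII array left out 1 atp gene was above 0. petN was lowest at -1.60 (95% interval -3.45 to 0.24), followed by petA at -1.26 (limma adjusted p = 0.988) and petB. The petN value includes the empty vector mock array with a signal of 4.5. For IAA7mII minus empty vector, 0 of 54 were called (background 0.0651%) and 0 had an unadjusted p under 0.05 (background 5%), 27 were above 0 (background 45.5%), and the median was -0.00, or 0.10 under median centring, -0.32 without the third IAA7mII array with IAA and 0.29 without the second. For IAA19mII minus IAA7mII, 0 of 54 were called (background 0.0178%), 5 had an unadjusted p under 0.05 (psbB, psbF, petB, rpoA and rpl22, background 6.34%), 14 were above 0 (background 52.6%), and the median was -0.30. Without the third IAA7mII array with IAA that median was -0.04 with 26 above 0, and without the second it was -0.48. These differences share arrays with one another, and their 95% intervals stayed within a 2-fold change for 2 genes in IAA19mII minus empty vector (background 18.6%), 4 in IAA7mII minus empty vector (background 19.5%) and 4 in IAA19mII minus IAA7mII (background 18.8%).

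**Figure D4:**
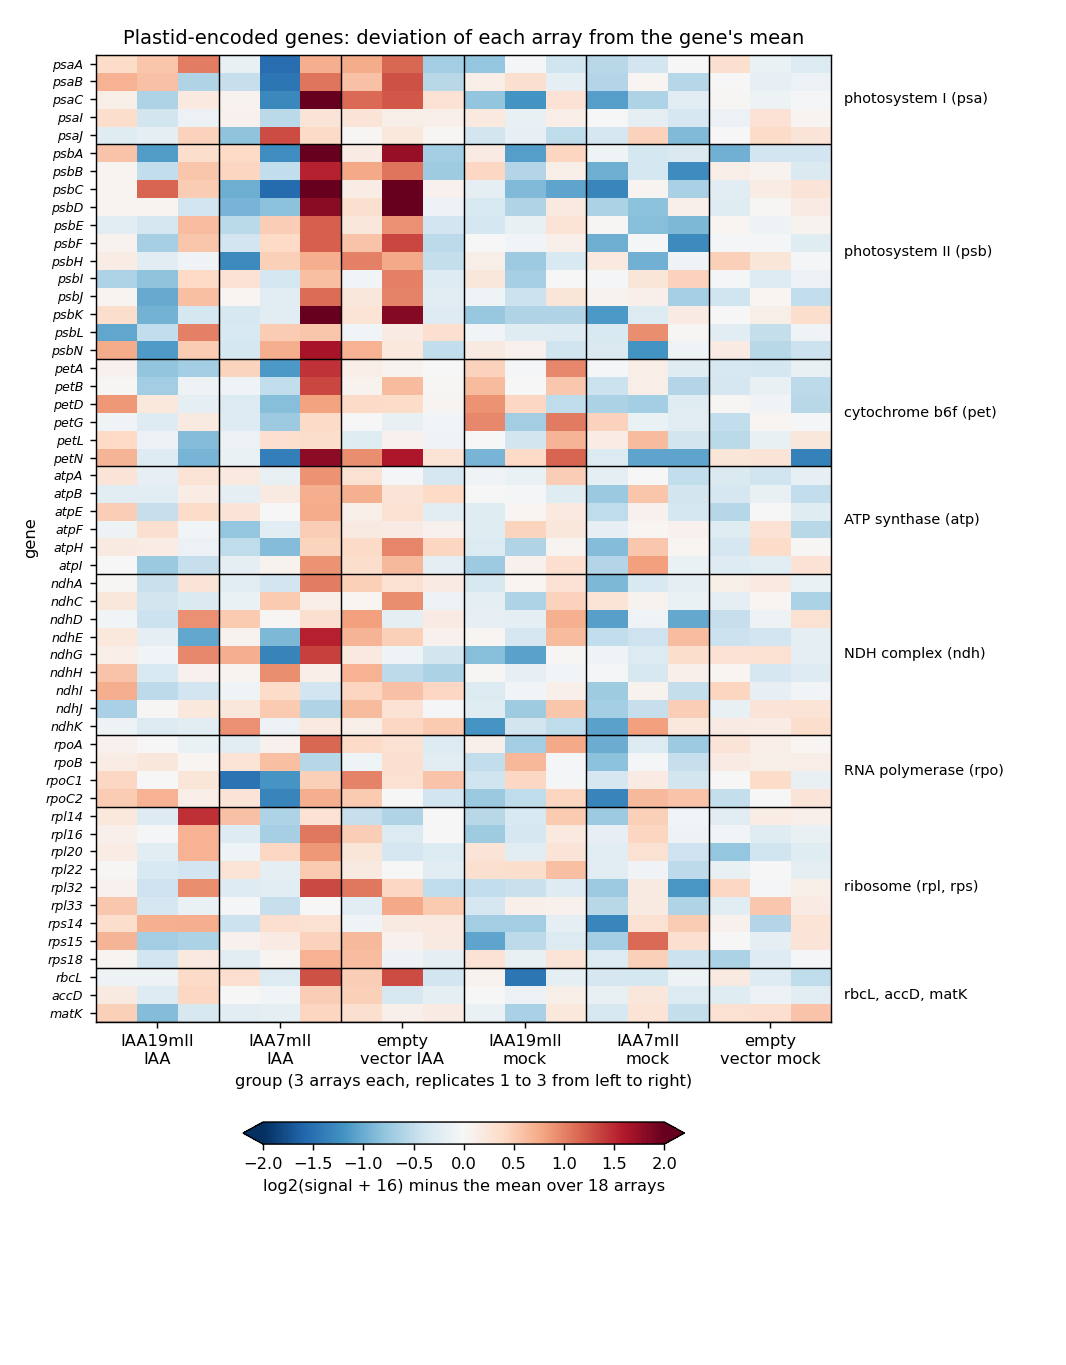
Deviation of each of the 54 tested plastid genes (rows, by complex) from its mean over the 18 arrays (columns, by group), on the log2 scale. The third array of IAA7mII cells with IAA is high for most psb, psa, pet and atp rows, and rpoC1 is low in the first and second arrays of that group.

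The plastid genes varied together between replicates of 1 group. After group means were removed, the mean Pearson correlation over the 1431 pairs of the 54 genes was 0.311, with 1186 pairs above 0, against 0.0079 over all pairs of tested probesets. It was 0.206 without the third IAA7mII array with IAA. The points are 18 arrays with 12 residual degrees of freedom and share each array's scaling, so these values are descriptions. The genes also varied more than most: the median SD of a gene was 0.451 in IAA19mII cells with IAA, 0.694 in IAA7mII cells with IAA, the group of the array that stood apart, and 0.351 in empty vector cells with IAA, against 0.424, 0.438 and 0.287 for all probesets. In empty vector cells with mock treatment it was 0.230, below the 0.262 of all probesets.

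Genes of the same transcription unit had a mean correlation of 0.336 (67 pairs), other pairs 0.309, and genes of the same complex in different units 0.399 (140 pairs). Without the third IAA7mII array with IAA these were 0.286, 0.202 and 0.290. psbD and psbC, which overlap on 1 transcript, reached 0.830 (0.587 without that array), and the psbE-psbF-psbL-psbJ unit averaged 0.568 (0.505). The rpoB-rpoC1-rpoC2 unit averaged 0.031, and 0.300 without that array, and the ndhC-ndhK-ndhJ unit -0.011, and -0.028 without it. The highest pair was rpl20 with rps18, at 0.942 (0.927 without the third IAA7mII array), and both encode ribosomal proteins.

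By complex, the mean correlation was 0.525 among psb genes, 0.519 among atp, 0.415 among pet, 0.392 among ribosomal protein, 0.240 among psa, 0.129 among rpo and 0.121 among ndh genes. These values moved with 1 array: without the third IAA7mII array with IAA the means were 0.366 (psb), 0.322 (atp), 0.228 (pet), 0.338 (ribosomal protein), 0.064 (psa), 0.216 (rpo) and 0.189 (ndh), so that psa was then the lowest. Signal level moved with these values: the 27 genes with the higher mean signals correlated at 0.487 among themselves and the 27 with the lower at 0.174 (0.287 and 0.137 without that array), and its part in the order of the complexes was not tested. petB, psaC and atpA had the highest mean correlations with the other members, at 0.496, 0.494 and 0.489 (0.344, 0.345 and 0.356 without that array). rpoB (-0.191) and ndhJ (-0.103) had the lowest, and both were positive (0.092 and 0.123) without the third IAA7mII array.

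**Figure D5:**
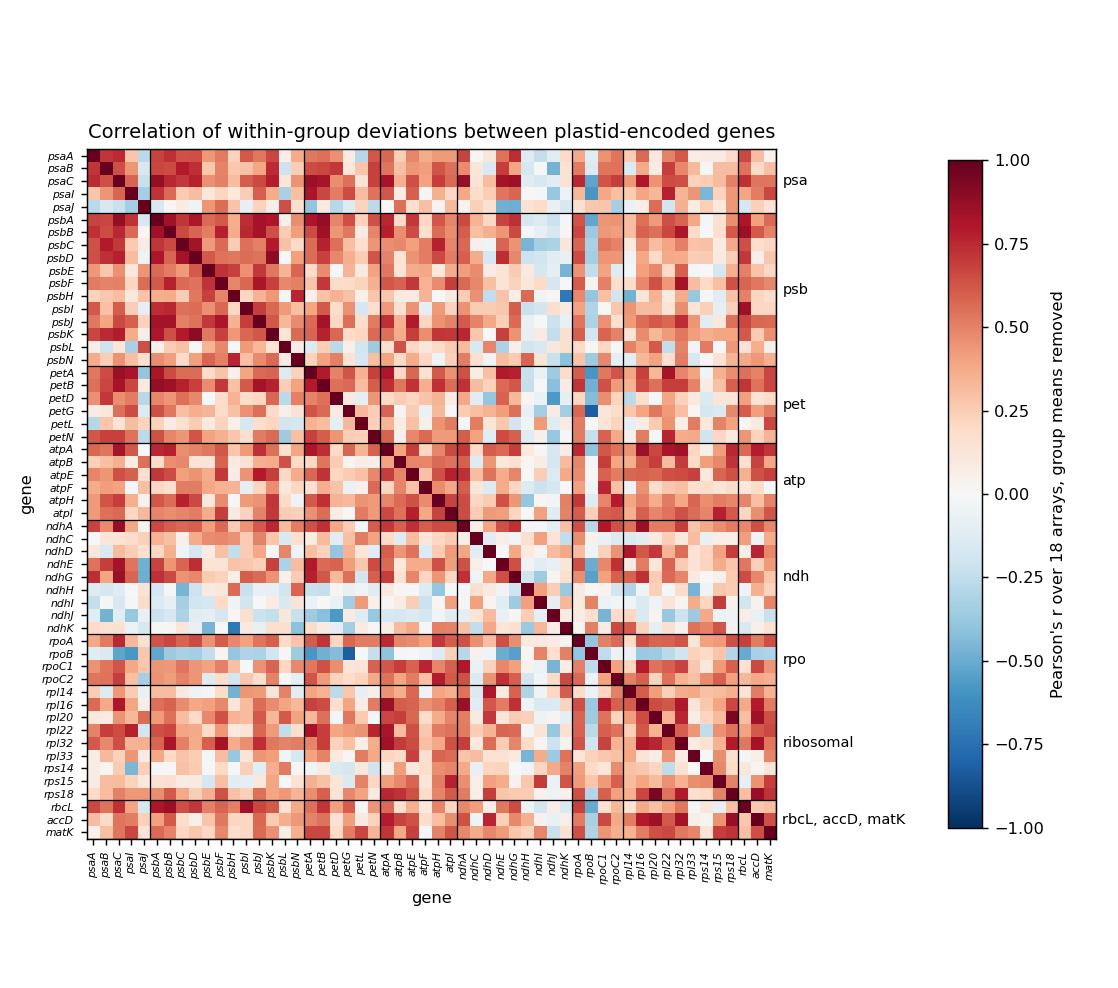
Pearson correlation of the within-group deviations of all pairs of the 54 tested genes over 18 arrays, ordered by complex. The psb, atp and pet blocks are mostly positive (means of 0.525, 0.519 and 0.415, or 0.366, 0.322 and 0.228 without the third IAA7mII array with IAA), and the rpoB and ndhJ rows have the lowest means, at -0.191 and -0.103.

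12 further plastid genes outside the list had a probeset of their own and were all tested (ccsA, clpP, rpl36, rps3, rps19, rps2, psbZ, ycf3, rps4, ycf4, cemA and rps16). None was called by limma in any of the 12 comparisons. Their median response to IAA in empty vector cells was 0.19 with 11 of 12 above 0, and on the third IAA7mII array their median lay 0.44 above their means. The 54 genes correlated with them at a mean of 0.239 (648 pairs).

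Nuclear genes for plastid proteins, which reach the organelle from the cytosol, could be read for few members. Of 94 listed identifiers, which include markers of root cell types, 11 had a named single-gene probeset and 10 were tested. Of 5 tested nuclear photosystem and ATP synthase subunits, PSBY was called higher in IAA19mII than in IAA7mII cells with IAA (1.33, SE 0.41, limma adjusted p = 0.0488), beside 6.64% of all tested probesets. Its signals were 29.3, 18.1 and 39.1 in IAA19mII cells, against 2.2, 0.9 and 1.3 in IAA7mII cells, far below the 40th percentile of 20.6 to 32.3. PSBY was tested in 15 of the 18 settings that leave out 1 array and lost the call in 13 of them (adjusted p 0.0489 to 0.107), those without any 1 of the 3 IAA7mII arrays with IAA among them. FTSZ2-1, a plastid division gene and the 1 tested of 10 on the development and division list, was called lower in IAA7mII cells with IAA (-1.18, SE 0.40, limma adjusted p = 0.0383), as were 11.7% of all tested probesets. It had 4.4, 32.4 and 1.6 in IAA7mII cells, against 48.1, 34.5 and 45.9 in empty vector cells. The signals of 4.4 and 1.6 were also far below the 40th percentile. The FTSZ2-1 call was lost in 5 of 18 such settings (adjusted p up to 0.156), without replicate 1, 2 or 3 of empty vector or replicate 1 or 3 of IAA7mII with IAA. The other tested genes were not called in any comparison: LHCB4.1 and LHCB4.2 of 21 light harvesting and RBCS genes, PSBW, PSAE-1, PSAN and ATPC1, the organelle RNA polymerase gene AT5G15700 (1 of 20 plastid transcription genes), and EXPA7 (1 of 3 root hair markers). LHCB4.1, an antenna protein of green cells, had 118.8, 213.6 and 126.1 in IAA7mII cells with IAA, against 115.2, 126.1 and 79.1 in empty vector cells with IAA (log2 change 0.44, SE 0.34). LHCB4.2 had the other sign, with 33.4, 41.3 and 67.8 against 59.5, 81.8 and 73.6 in the same groups (-0.49, SE 0.38). No listed marker of root epidermis and root cap, endodermis or stele had a named single-gene probeset. The cortex marker AT1G62500 had one but was too dim to be tested. The labelled cell type was therefore not checked against these markers.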

How the data were processed

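Gene expression of 18 samples was measured on ATH1 arrays. Per the labels' protocols, RNA of sorted cells was extracted with a DNase step and amplified with the NuGEN WT-Ovation Pico system. The deposited values are linear signal intensity, 1 per probeset, which the authors made with MAS5 per the submitters' processing notes (version not given in the sources used here). Their scaling was kept. Gene names come from the platform's annotation table, in which 13513 of 22746 probesets name 1 gene, 503 several and 8730 none.

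A probeset was kept if it passed the 40th percentile of the array on 3 or more of 18 arrays (16892 did). Group means of log2(signal + 16) were estimated with limma 3.58.1 (R 4.3.3) and a trended empirical Bayes prior. Benjamini-Hochberg adjustment ran over all tested probesets within each of 12 comparisons, at a threshold of 0.05. The procedure was tested on simulated data. Replicate pairs within a group correlated at 0.931 to 0.976 and none was identical; the number of arrays limits the precision. Per-array values are given for the gene with the highest mean signal in each complex and for called genes, by rule; other named genes were chosen after their values were seen. The members and gene lists were chosen with earlier results of these data known. Alternatives were other pseudocounts (1 and 64), no filter or the 60th percentile, median centring, centring on probesets not annotated to organelle genes, quantile normalization, no trend, array weights, a replicate block, and leaving out each array in turn.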

Additional observations from a re-analysis of the deposited data

How the results depend on the processing

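Across 10 alternatives and 18 arrays left out in turn, no called change turned its sign. In IAA7mII against empty vector with IAA, the count of called plastid genes was 0 with the 60th-percentile filter, where rpoC1 was not tested, and 0 with quantile normalization, 2 (atpH and rpoC1) with array weights, and 0 to 6 when 1 array was left out. It was 1 after either centring, but the gene was then rpl20, called higher, in place of rpoC1. These counts stand beside 19.5% of all tested probesets called in the main fit, and 19.1% without the third IAA7mII array with IAA. rpoC1 kept its call in 20 of the 27 settings that tested it (adjusted p 0.000991 to 0.141). Its log2 change was -1.03 with both centrings and -1.05 with quantile normalization. In IAA19mII against empty vector with IAA, 1 gene, rpl14, was called with median centring, quantile normalization and centring on non-organelle probesets. With mock treatment, 1 gene, rpl20, was called with centring on non-organelle probesets. Between IAA19mII and IAA7mII with IAA, leaving out 1 array gave 0 to 2 calls. For these comparisons, in the order given, the main fit called 23.5%, 14.5% and 6.64% of all tested probesets. Shares under most other settings are not given here. The median change in IAA7mII against empty vector with IAA was 0.292 with median centring, 0.293 with centring on non-organelle probesets, and -0.40 to 0.12 with 1 array left out. The median response to IAA in IAA7mII cells was 0.038 to 0.58 with 1 array left out, and that of IAA7mII minus empty vector -0.32 to 0.29. A group that lost an array kept 2 and borrowed its spread from all groups. Samples with the same replicate number shared little deviation: 45 such pairs correlated at a median of 0.009 and 1 pair passed 0.1. That pair was replicate 1 of empty vector with mock treatment and with IAA, at 0.162. These values cannot show whether samples with the same number were prepared together. The fit with the replicate block kept 1 call, rpoC1 (adjusted p 0.0300), and changed no other. A block for scan date and an average over several probesets of a gene were not run. The pseudocount of 16 is close to the mean signal of the dimmest tested member, petL (16.5), so changes of such dim genes are understated.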
